A study of Mus musculus with 4 samples.

Results

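Inflammasomes are protein complexes that assemble in the cytosol of a cell that senses infection or damage. A sensor (NLRP3, or NLRC4 joined to a NAIP protein) recruits caspase-1, directly or through the adaptor ASC, and the activated protease matures interleukin-1 beta and interleukin-18 and cleaves gasdermin D, whose freed fragment opens pores in the plasma membrane and leads to the lytic death called pyroptosis. Caspase-4 of the mouse, long known as caspase-11, binds lipopolysaccharide in the cytosol through its lipid A moiety and cleaves gasdermin D by the noncanonical route. Macrophages are the cells in which both routes were largely worked out, and in them the amounts of NLRP3 and of caspase-11 are known to be set by earlier Toll-like receptor and interferon signals.

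The genes described here were taken by symbol, with no cut on a measured value, although earlier results of these data were known. They are the sensors Nlrp3, Nlrc4, Naip2 and Naip5, the adaptor Pycard (ASC), the NLRP3-binding kinase Nek7, the caspases Casp1 and Casp4, and Gsdmd. These are 9 of 55536 annotated genes, and each symbol belonged to 1 gene. The material was cytosolic RNA of macrophages grown in culture from the bone marrow of C57BL/6J mice. Lipid A, the part of lipopolysaccharide that Toll-like receptor 4 recognises, was given at 100 ng/ml for 12 h, washed out for 12 h, and given again at 100 ng/ml for 15 min. All 4 libraries (biological replicates 1 to 4) belong to this 1 group; the labels name no genetic change, and no untreated sample or other time point is among them, so the values are levels and not responses to lipid A. The labels name 1 donor record for all 4 and record neither sex nor age. They do not say whether animals or cultures were separate, so the spread behind each p-value is that of these 4 samples and may be technical.

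Each library was total RNA depleted of ribosomal RNA, and expected counts (reads divided by the authors between features they could have come from) summed to between 30660511 and 48223718. The 9 genes held between 26421 and 38966 of these counts per library. Values are given as TPM, an abundance corrected for transcript length and scaled to a fixed total in each library, as mean ± SD (n = 4) unless stated. Small and structural noncoding RNAs took between 62.1% and 73.4% of the TPM, and protein-coding genes held 31.7%, 25.3%, 29.96% and 36.6% of it in replicates 1 to 4. A library's TPM of every mRNA moves with this share. Levels were therefore also rescaled so that protein-coding genes alone make up the total, which raised them by 1.71 on the log2 scale on average (1.66, 1.98, 1.74 and 1.45 in replicates 1 to 4). All 10 macrophage markers examined lay above 1 TPM. Of markers of other cells, S100a9 (6.25 TPM) and S100a8 (4.54 TPM) among 8 neutrophil genes and Cd79b (1.36 TPM) among 6 B cell genes did, whereas Ly6g was at 0.005 TPM and the B cell gene Pax5 at 0.005 TPM. None of 6 T cell markers (highest Lck, 0.0875 TPM), 6 natural killer cell markers (Nkg7, 0.0275 TPM), 6 mast cell and basophil markers (Kit, 0.190 TPM) and 7 fibroblast and endothelial markers (Pecam1, 0.878 TPM) did. In bulk RNA, fewer cells that express a gene and less RNA per cell cannot be told apart.

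All 9 genes were expressed, and the caspases and gasdermin D stood above the 4 sensors of the set. Casp1 was the most abundant at 93.3 ± 23.2 TPM, followed by Gsdmd at 50.2 ± 13.2 TPM and Casp4 at 37.4 ± 14.2 TPM. Pycard (32.3 ± 6.51 TPM) and Nek7 (22.1 ± 3.55 TPM) came next. The sensors followed, with Naip2 at 14.5 ± 3.32 TPM, Nlrp3 at 11.8 ± 3.70 TPM, Naip5 at 6.43 ± 1.52 TPM and Nlrc4 at 2.15 ± 0.592 TPM. Casp1 thus exceeded 95.9% of tested protein-coding genes and Nlrc4 exceeded 34.6% of them. The median of the 9 genes was 22.1 TPM, beside 4.85 TPM for the 12636 protein-coding genes tested.

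Between neighbours in this order, the higher gene was the higher one in 4 of 4 libraries except for the pairs Casp4 and Pycard, and Naip2 and Nlrp3. Casp4 exceeded Pycard in 3 of 4 libraries (log2 ratio 0.17 ± 0.29), and Naip2 exceeded Nlrp3 in 3 of 4 (0.32 ± 0.52), so neither pair differed beyond its spread. The second deposited quantification, made from the same reads by another route, gave the same order but for Nlrp3, which stood above Naip2 there (48.2 against 45.4 rescaled TPM, and 37.9 against 46.7 in the first).

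**Figure D1:**
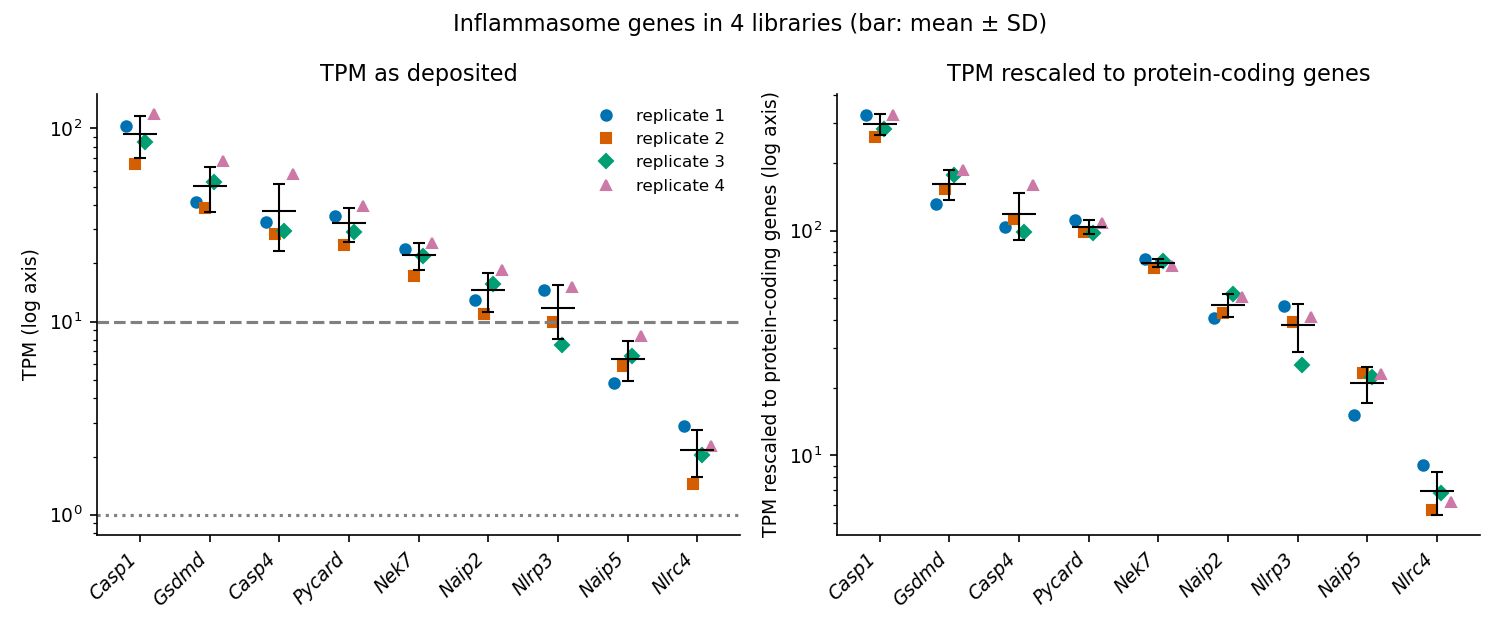
TPM of the 9 inflammasome genes in each of the 4 libraries, as deposited (left) and rescaled to protein-coding genes (right), on log axes. Points are libraries, bars are mean ± SD, and the lines mark 1 TPM (dotted) and 10 TPM (dashed). The points run from Casp1 at 93.3 TPM on average to Nlrc4 at 2.15 TPM, with replicate 4 highest for 8 of the 9 genes as deposited.

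Against fixed levels, 9 of 9 genes lay above 1 TPM (limma on log2(TPM + 0.1), one-sided, Benjamini-Hochberg adjusted p below 0.05 over 16262 genes). Of all genes tested 58.2% did, and of protein-coding genes 71.2%. None of the 9 lay below 1 TPM, as 35.1% of all genes and 22.4% of protein-coding genes did. The least abundant, Nlrc4, passed at an adjusted p of 0.000305 (limma). Above 10 TPM lay 6 of 9, a level that 21.7% of all genes and 27% of protein-coding genes passed: Casp1, Gsdmd, Casp4, Pycard, Nek7 and Naip2. Nlrc4 and Naip5 lay below 10 TPM, as did 69.8% of all genes and 62.6% of protein-coding genes, and Nlrp3 had neither call (limma adjusted p = 0.679). The call of Naip2 (limma adjusted p = 0.0176) was lost without replicate 3 (mean 14.1 TPM) and without replicate 4 (13.2 TPM). These counts depend on the scale: rescaled to protein-coding genes, 8 of 9 lay above 10, Nlrp3 (37.9) and Naip5 (20.9) among them, as did 44.6% of all genes and 55.5% of protein-coding genes. With the second quantification as deposited 2 of 9 did, as did 5.81% of all genes and 8.17% of protein-coding genes.

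The first group is the effectors. Casp1 (chromosome 9, 5298517 to 5307265, plus strand; mm10) encodes caspase-1, and stood at 103, 65.7, 84.7 and 119 TPM in replicates 1 to 4. Replicates 1 and 4 were high and replicate 2 low. Rescaled to protein-coding genes the values were 325, 260, 283 and 326, so replicates 1 and 4 remained the highest, close to each other. The annotation holds 1 transcript of Casp1, with 10 exons and 1497 bases, so its level does not rest on a division between transcripts.

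Casp4 lies just downstream on the same strand (chromosome 9, 5308828 to 5336783) and encodes the lipopolysaccharide-binding caspase. Its values were 32.8, 28.6, 29.6 and 58.5 TPM. Replicate 4 stood apart from the other 3, which lay close together. After rescaling, replicate 4 was still highest (160, against 103, 113 and 98.9 in replicates 1 to 3). Without replicate 4 the mean was 30.3 TPM. Replicate 4 had the highest share of protein-coding TPM, which the rescaling divides out. After rescaling, Gbp3 (379) and Gbp5 (333) were also highest in replicate 4. These guanylate-binding protein genes encode products that act with caspase-11 on bacterial lipopolysaccharide. Whether they have a part in the Casp4 value was not tested.

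Gsdmd (chromosome 15, 75862327 to 75867408, plus strand) encodes the pore-forming substrate of both caspases. It stood at 41.8, 38.6, 52.8 and 67.8 TPM, and at 132, 152, 176 and 185 after rescaling. Replicates 3 and 4 were the higher ones on both scales. Replicate 2 was lowest as deposited, and replicate 1 after rescaling.

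The coding sequences that make these 3 genes a unit can be read in the annotated transcripts. Shown for the 2 caspases are 57 coding bases around the conserved motif with the catalytic cysteine, and for Gsdmd 57 coding bases around the motif at which caspases cut; capitals mark the codons of the 5 residues of each motif, and each stretch spans a splice junction. Each stretch is on the plus strand, 5′ to 3′, and its genomic span (mm10) holds the intron between the 2 exons named: chr9:5303738-5304206 for Casp1 (exons 6 and 7), chr9:5324922-5327195 for Casp4 (exons 5 and 6) and chr15:75866146-75866321 for Gsdmd (exons 7 and 8).
Casp1: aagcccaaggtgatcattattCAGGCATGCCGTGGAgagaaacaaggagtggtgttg
Casp4: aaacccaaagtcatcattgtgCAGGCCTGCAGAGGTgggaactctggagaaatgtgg
Gsdmd: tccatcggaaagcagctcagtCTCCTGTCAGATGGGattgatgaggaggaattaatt

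Over the whole coding sequence Casp1 and Casp4 were identical at 628 of 1113 aligned bases (56.4%), with no identical run longer than 12 bases. Neither transcript shared a stretch of 31 bases with any other gene, and the same held for Gsdmd and Nlrp3. Reads of these neighbouring caspase genes can therefore be told apart by sequence, and the posterior standard deviation that the authors deposited for the counts, a measure of uncertain read assignment, was 0 for Casp1, Casp4, Gsdmd, Nlrp3 and Nlrc4 in each library.

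Within a library, Casp1 exceeded Casp4 by 3.15, 2.30, 2.86 and 2.04 times in replicates 1 to 4. The ratio was above 1 in 4 of 4 libraries, with a geometric mean of 2.55 (log2 ratio 1.35 ± 0.28). Gsdmd stood at 0.405, 0.586, 0.623 and 0.567 of Casp1, below it in 4 of 4, geometric mean 0.538 (log2 ratio -0.89 ± 0.28). The exact two-sided sign-flip permutation test of each ratio gave p = 0.13, the smallest that 4 libraries allow, and 0.13 adjusted over the 6 ratios examined, so none of them could pass 0.05.

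**Figure D2:**
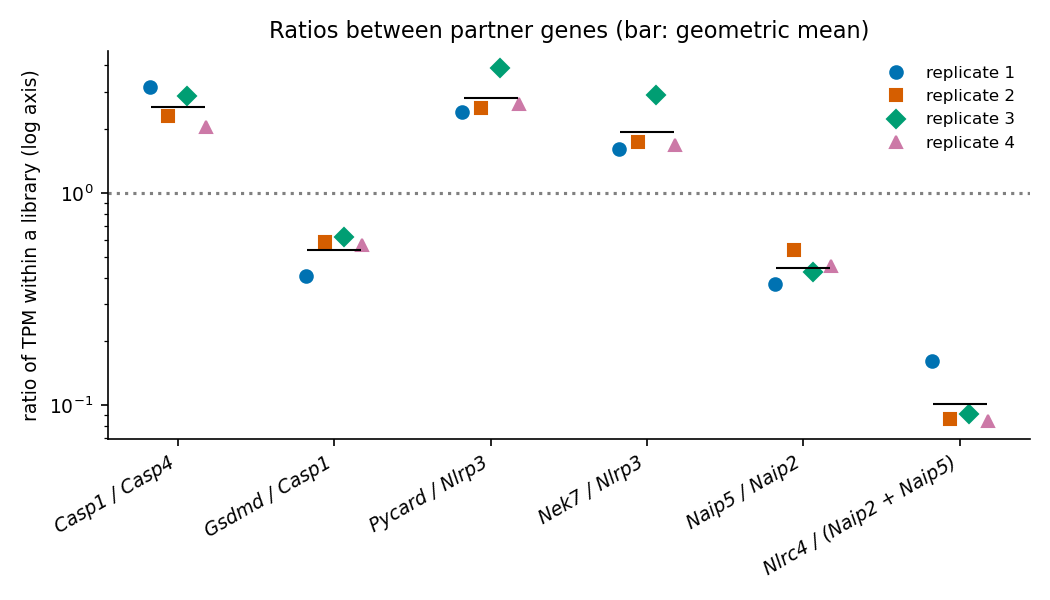
Ratios of TPM between partner genes within each of the 4 libraries, on a log axis; points are libraries, bars the geometric mean, and the dotted line equal levels. Each of the 6 ratios lies on one side of 1 in 4 of 4 libraries, with replicate 3 apart for the ratios to Nlrp3 (3.87 and 2.91) and replicate 1 apart for Nlrc4 to Naip2 plus Naip5 (0.162).

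Next come the adaptor and the kinase. Pycard (chromosome 7, 127989708 to 127993867, minus strand) encodes ASC, whose polymers join sensor and caspase, and stood at 35.4, 24.9, 29.2 and 39.6 TPM. The values rescaled to protein-coding genes were 111, 98.4, 97.3 and 108, which lie closer together, with replicates 1 and 4 still the higher ones. Nek7 (chromosome 1, 138482875 to 138620141, minus strand) encodes a mitotic kinase that NLRP3 needs for activation, and stood at 23.6, 17.3, 22.0 and 25.6 TPM. Rescaled, its libraries lay between 68.3 and 74.5, the narrowest of the 9 genes relative to its mean.

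The level of Pycard in TPM rests on how its reads divide between transcripts of very different length. Pycard-202, of 493 bases, held 74.2% ± 2.92 of the gene's TPM but 18.1% ± 3.03 of its expected counts. Pycard-201, of 3800 bases and only 579 coding ones, held 25.8% of the TPM and 81.9% of the counts. Taken alone, Pycard-201 stood at 8.23 ± 1.34 TPM, lower than Nlrp3 in 3 of 4 libraries and higher in replicate 3 (8.37 against 7.54 TPM). The second quantification gave nearly the same division (77.5% of TPM on Pycard-202). A gene on the opposite strand, Gm45205, overlaps Pycard and holds 12.1% of the 31-base stretches of Pycard-201; it was listed at no more than 0.06 TPM. The sources used here do not state that counting used strand, so reads of the pair may not be told apart.

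Among the sensors, Nlrp3 (chromosome 11, 59541568 to 59566956, plus strand) encodes the sensor of potassium loss, crystals and pore-forming toxins. It stood at 14.7, 9.89, 7.54 and 15.2 TPM. Replicate 3 was the lowest, and stayed so after rescaling (46.2, 39.1, 25.2 and 41.4), 0.74 below the mean of the other libraries on the log2 scale. Pycard exceeded Nlrp3 by 2.41, 2.52, 3.87 and 2.61 times, and Nek7 exceeded it by 1.61, 1.75, 2.91 and 1.69 times. Both ratios were above 1 in 4 of 4 libraries (geometric means 2.80 and 1.93; exact sign-flip permutation p = 0.13 each), and replicate 3 was highest in both.

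Nlrp3 has separate annotated starts, and the share of each rests on how a quantification divides the reads. In the first quantification Nlrp3-201, which starts at 59541568, held 64.2% ± 5.16 of the gene's TPM, and Nlrp3-202, which starts at 59542686, held 35.4% ± 5.20. Both have a coding length of 3099 bases. Nlrp3-201 led in 4 of 4 libraries (64.1%, 57.7%, 64.9% and 70.3%). The second quantification gave 39.9% to Nlrp3-201, 33.9% to Nlrp3-202 and 26.2% to Nlrp3-203, a short transcript of 676 bases that held 0.359% in the first; there Nlrp3-202 led in replicate 2 (42.5% against 26.7%). By counts, which do not weight a short transcript up, Nlrp3-203 held 4.14% in the second quantification.

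The 250 bases before each start are shown because both transcripts held a share of the TPM and the windows differ in the motifs they hold. They are from RefSeq (GRCm38.p6), plus strand, 5′ to 3′, at chr11:59541319-59541568 for Nlrp3-201 and chr11:59542436-59542685 for Nlrp3-202. Capitals mark a match to the consensus of NF-kB, a transcription factor activated by Toll-like receptors, in the first, and the 3 matches on either strand to GAGGAA, a core bound by PU.1 and other Ets factors, in the second.
Nlrp3-201: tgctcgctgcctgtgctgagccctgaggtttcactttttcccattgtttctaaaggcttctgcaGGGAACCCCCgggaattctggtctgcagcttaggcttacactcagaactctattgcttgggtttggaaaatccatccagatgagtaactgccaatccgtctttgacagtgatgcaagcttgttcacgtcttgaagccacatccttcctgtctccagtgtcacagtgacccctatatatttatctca
Nlrp3-202: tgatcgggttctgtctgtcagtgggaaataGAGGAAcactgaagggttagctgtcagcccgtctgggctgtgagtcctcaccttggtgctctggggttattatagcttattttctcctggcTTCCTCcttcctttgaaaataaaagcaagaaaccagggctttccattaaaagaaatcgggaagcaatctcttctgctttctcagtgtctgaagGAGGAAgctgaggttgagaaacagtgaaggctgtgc

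RefSeq promoter windows were found for 8 of the 9 genes, 10 windows in all, of which the pair for Casp4 overlap; there was none for Gsdmd, and that of Naip5 lies 1013 bases from its GENCODE start. The NF-kB consensus was in 4 of 10 windows (Nlrp3-201, Naip5 and both of Casp4), and in 7.25% of all 32851 RefSeq windows of that length, both strands searched. GAGGAA was in 3 of 10 (Nlrp3-202, Pycard and Casp1), and in 23.3% of all. The interferon-response letters GAAANNGAAA were in 0 of 10 (2.98% of all), as were the STAT letters TTCNNNGAA (7.02%) and the AP-1 letters TGANTCA (6.75%), and TATAAA was in 1 of 10 (12.4%), before Naip5. These are matches of letters, with no binding measured.

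The NAIP proteins bind bacterial ligands and then NLRC4: Naip2 recognises the rod protein of type III secretion systems and Naip5 recognises flagellin. Naip2 (chromosome 13, 100144063 to 100202092, minus strand) stood at 12.9, 10.9, 15.7 and 18.5 TPM, and Naip5 (chromosome 13, 100211739 to 100246323, minus strand) at 4.80, 5.87, 6.65 and 8.41 TPM. Naip5 was at 0.372, 0.539, 0.423 and 0.454 of Naip2, below it in 4 of 4 libraries (geometric mean 0.443; exact sign-flip permutation p = 0.13). Rescaled, Naip5 was at 15.1 in replicate 1 and between 22.2 and 23.2 in the others, so replicate 1 was the low one.

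These are neighbouring copies of similar sequence, and their levels depend on reads that fall where they differ. Coding sequences of Naip2 and Naip5 were identical at 89.8% of aligned bases, and those of Naip5 and Naip6 at 97.0%. Of the 31-base stretches of Naip5-201, 53.1% also occurred in other genes, most of them in Naip6 (36.7%), with a longest shared stretch of 340 bases. Of those of Naip2-202, 33.1% were shared, most with Naip1 (21.3%). To show how the copies differ, a matching window of 60 coding bases is given from each, 54 of them identical, with capitals at the bases that differ. They lie at chr13:100189234-100189293 (Naip2, exon 3) and chr13:100246035-100246094 (Naip5, exon 1; mm10, minus strand, 5′ to 3′).
Naip2: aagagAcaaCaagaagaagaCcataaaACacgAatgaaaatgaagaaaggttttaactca
Naip5: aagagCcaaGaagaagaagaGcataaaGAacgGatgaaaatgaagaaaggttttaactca

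The deposited posterior standard deviation was 0.138% of the count for Naip5 and 0.0247% for Naip2, averaged over the libraries, and the 2 quantifications gave them nearly the same rescaled level (log2 difference -0.03 ± 0.02 SE for Naip5 and -0.04 ± 0.02 SE for Naip2). For Naip1 the posterior standard deviation was 1.60% and for Naip6 0.121%. Naip6, whose product also recognises flagellin, stood at 4.79 ± 0.971 TPM; it falls outside the rule for named genes and is given here, after its values were seen, because it shares most sequence with Naip5. Levels of these paralogs remain uncertain to the extent that the authors' counting split their reads.

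Naip2 also has separate annotated starts, at 100197147 for Naip2-201 and 100202092 for Naip2-202, and both encode the same coding length of 4341 bases. The first quantification put 89.0% ± 4.41 of the TPM on Naip2-201 and 9.17% ± 4.19 on Naip2-202. The second put 8.91% ± 4.21 on Naip2-201 and 88.6% ± 4.79 on Naip2-202. The leading transcript was thus opposite in the 2 quantifications in each of the 4 libraries, while the gene's level was not, and these files do not settle which start was used.

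Nlrc4 (chromosome 17, 74425438 to 74459142, minus strand), the partner of all NAIP sensors, was the least abundant of the 9 genes at 2.87, 1.44, 2.03 and 2.27 TPM, from 432 to 708 expected counts per library. Replicate 1 was highest and replicate 2 lowest, on the rescaled scale too (9.05, 5.69, 6.77 and 6.20). In the second quantification the rescaled values lay closer together (11.0, 9.79, 10.9 and 10.5), so the height of replicate 1 depends on the quantification. Nlrc4 stood at 0.162, 0.0859, 0.0908 and 0.0843 of the sum of Naip2 and Naip5 (geometric mean 0.102; exact sign-flip permutation p = 0.13), with replicate 1 apart from the other 3. Nlrc4-201 held 90.4% ± 5.67 of the TPM in the first quantification and 98.2% ± 0.870 in the second. The call of Nlrc4 above 1 TPM was lost with the second quantification as deposited (1.19 TPM).

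**Figure D3:**
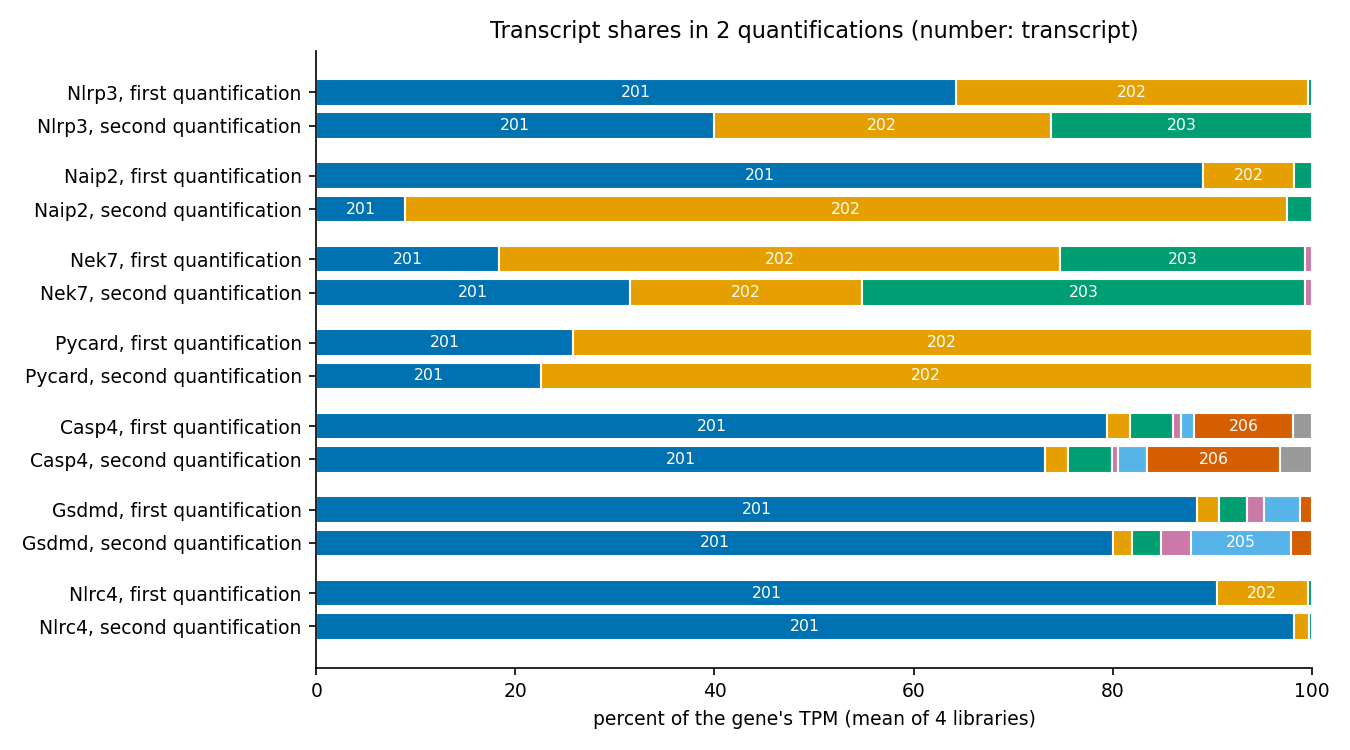
Share of each gene's TPM held by its transcripts, mean of 4 libraries, in the first and the second quantification; numbers name transcripts of at least 8%. Naip2 changes its leading transcript from Naip2-201 (89.0%) to Naip2-202 (88.6%), and Nlrp3-203 appears at 26.2% in the second quantification, while Pycard, Casp4, Gsdmd and Nlrc4 keep theirs.

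Casp4 and Gsdmd kept their leading transcript in both quantifications. Casp4-201 held 79.4% ± 1.45 of the Casp4 TPM (73.2% in the second quantification), with Casp4-206, a fragment of 361 bases, at 9.99% (13.4%). Gsdmd-201 held 88.4% ± 4.48 (80.0%), and Gsdmd-205, a retained-intron transcript of 406 bases, passed 10% only in the second (3.63% in the first). For Nek7 the leader differed: Nek7-202 held 56.4% ± 15.1, Nek7-203 24.6% ± 13.8 and Nek7-201 18.4% ± 4.69 in the first quantification, and 23.3%, 44.5% and 31.5% in the second. Nek7-202 ranged from 35.8% in replicate 1, where Nek7-203 led with 41.8%, to 70.7% in replicate 2.

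Retained-intron transcripts are annotated for Gsdmd, Casp4 and Nek7. For Gsdmd they held 2.44%, 14.2%, 6.10% and 3.33% of the TPM in replicates 1 to 4, for Casp4 2.99%, 9.41%, 4.69% and 4.77%, and for Nek7 0.0423%, 1.68%, 0.638% and 0.235%. Replicate 2 was highest and replicate 1 lowest for each of the 3 genes. The same library was highest for 75.8% of 2760 protein-coding genes with such a transcript and at least 10 TPM, whose median shares were 0.425%, 2.89%, 0.977% and 1.21%, so the order of the libraries was not particular to these genes. In the second quantification the shares were 9.23%, 28.6%, 9.42% and 13.2% for Gsdmd and 3.42%, 17.2%, 6.86% and 6.20% for Casp4, with replicate 2 highest again.

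Long noncoding RNA held 0.466%, 1.63%, 0.717% and 0.766% of the counts on annotated genes in replicates 1 to 4, and Malat1, a long noncoding RNA of the nucleus chosen after its values were seen, stood at 55.7, 719, 416 and 295 TPM. Replicates 2 and 1 were again the extremes. The part of nuclear RNA in the retained-intron shares was not tested.

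**Figure D4:**
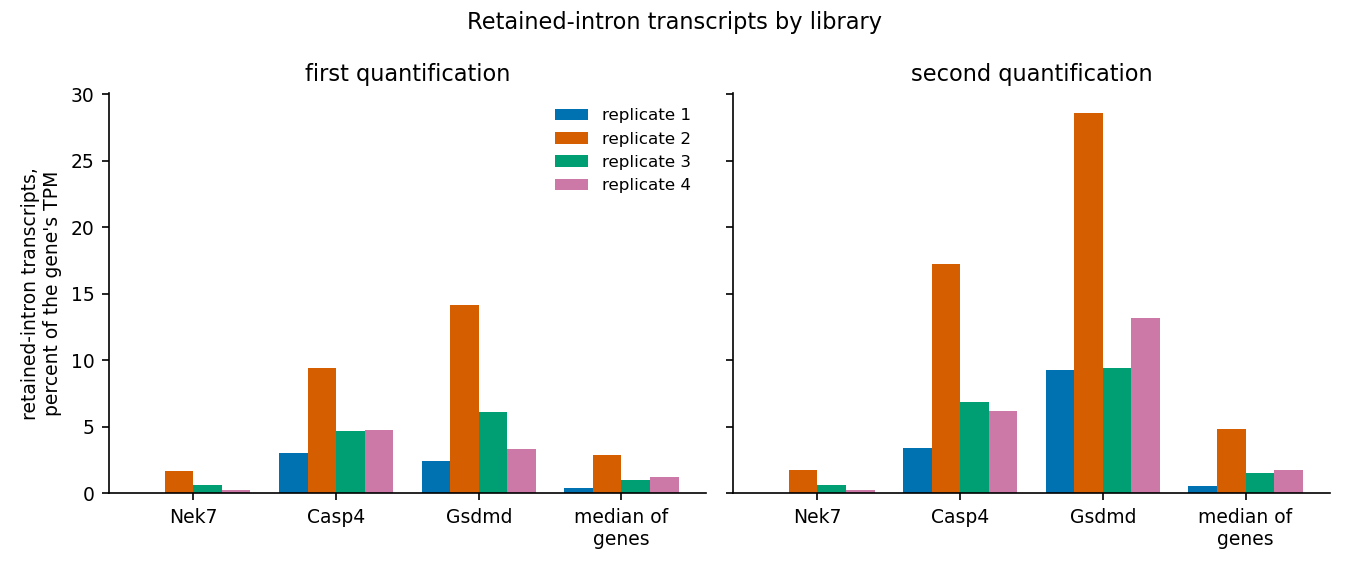
Retained-intron transcripts as a percentage of the TPM of Nek7, Casp4 and Gsdmd in each of the 4 libraries, beside the median of 2760 protein-coding genes, in both quantifications. Replicate 2 has the tallest bar in each set, at 14.2% for Gsdmd and 2.89% for the median gene in the first quantification.

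As deposited, 8 of the 9 genes were highest in replicate 4 and 7 of 9 lowest in replicate 2. This was near what protein-coding genes of at least 10 TPM did, of which 70.4% were highest in replicate 4 and 77.1% lowest in replicate 2 (n = 4213). Rescaled to protein-coding genes, the highest library was replicate 1 for 4 genes, replicate 4 for 3 and replicates 2 and 3 for 1 each. Of the 7511 protein-coding genes of at least 10 on this scale, 27.8%, 26.2%, 27.6% and 18.4% were highest in replicates 1 to 4. Deviations were taken in log2 from the mean of the gene's other libraries. The largest on this scale were Nlrp3 in replicate 3 (-0.74) and Casp4 in replicate 4 (0.60). Naip5 (-0.59) and Nlrc4 (0.54) in replicate 1 came next. For Nlrc4 the second quantification put the libraries closer together, between 9.79 and 11.0 rescaled TPM. After rescaling, the library in which a gene was highest thus differed from gene to gene, among the 9 as among protein-coding genes at large. In replicate 4, however, 7 of the 9 genes still lay above the mean of their other libraries. Median deviations there were 0.18 for the 9 genes and -0.03 for the 7511 protein-coding genes. That library was lowest for 0 of the 9 genes and for 29.8% of those protein-coding genes.

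The spread between libraries, as edgeR's biological coefficient of variation on rounded expected counts, had a median of 0.161 over the 9 genes. It was 0.142 for the 4213 protein-coding genes of at least 10 TPM and 0.206 for all 16262 genes tested. In the second quantification these medians were 0.178, 0.174 and 0.440. By DESeq2's gene-wise estimate in the first they were 0.169, 0.110 and 0.141, so there the 9 genes lay above all genes tested. By edgeR in the first quantification, the values of the 9 genes ran from 0.128 for Nek7 to 0.212 for Nlrp3 and 0.217 for Nlrc4, with Casp4 at 0.198. Of the 4213 protein-coding genes, 23.1% had a smaller value than Nek7, 91.55% than Casp4, 93.7% than Nlrp3 and 94.2% than Nlrc4. Nlrc4 and Naip5 themselves lie under the 10 TPM of that background. Single libraries weigh on them: Nlrc4 fell to 0.143 without replicate 1, and Casp4 to 0.128 without replicate 4. In the second quantification Nlrp3 (0.229) had the largest and Nlrc4 was at 0.174, and by DESeq2's gene-wise estimate Nek7 was at 0.0454. Of the 2 quantifications, compared by limma treat within a library after rescaling, 0 of 9 genes differed by more than a log2 difference of 1, as 4.27% of 14119 genes did, and 0 of 9 had an unadjusted p below 0.05. The widest gaps were those of Nlrc4 (log2 difference 0.62 ± 0.10 SE) and Nlrp3 (0.33 ± 0.04 SE), both higher in the second.

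By the root mean square difference of log2(TPM + 0.1) over the 4 libraries, taken among 12568 protein-coding genes outside the lists, the genes with levels most like Casp1 were Lyn (0.06) and Epsti1 (0.08). Those most like Nlrp3 were Gm6377 (0.14) and Snrpb2 (0.15), and those most like Naip5 were Fam193a (0.05) and Adnp (0.08).

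Of 39 further genes of the pathway, 33 had enough counts for a test. Of these, 27 lay above 1 TPM (limma), 4 below and 2 had neither call. Among all genes tested 58.2% lay above and 35.1% below, and among protein-coding genes 71.2% and 22.4%. The median of the 39 genes was 8.65 TPM, against 22.1 TPM for the 9 genes. Other sensors were the scarce group, with 4 of 9 above (7 tested). Aim2, which senses cytosolic DNA, was at 36.03 ± 8.07 TPM. Nlrp1a had neither call (1.18 ± 0.333 TPM), and Nlrp10 (0.393 ± 0.0866 TPM) and Naip1 (0.193 ± 0.0591 TPM) lay below the level. Nlrp12 had 0 expected counts in each library of the first quantification, a limit of 3 counts or 0.0978 CPM (counts relative to library depth) in replicate 1, the shallowest, and Nlrp6 had 1 count in all. In the second quantification Nlrp12 was at 0.0589, 0.168, 0.0952 and 0.0393 rescaled TPM.

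Caspases, substrates and the rupture protein gave 8 of 13 above 1 TPM (9 tested). Ninj1, which encodes the protein that ruptures the membrane after the gasdermin pore has opened, stood at 139 ± 23.0 TPM, higher than Casp1 in 4 of 4 libraries. Casp8, which encodes a caspase of death receptor signalling, lay above the level too (37.3 ± 7.69 TPM). Of the cytokine substrates and Il1a, Il18 was at 24.5 ± 8.53 TPM, Il1a at 18.2 ± 4.70 TPM and Il1b at 34.8, 14.4, 15.0 and 18.6 TPM. Replicate 1 was the high one for Il1b, also after rescaling (110 against 49.96 to 56.9), and its spread (coefficient 0.298) was the largest among pathway genes of at least 10 TPM. Without replicate 1 the coefficient of Il1b was 0.110, below those of Gbp5 (0.244) and Gbp2 (0.240). Casp12 lay below the level (0.490 ± 0.387 TPM), a call that was lost without replicate 2 (0.587 TPM). Replicate 4 was its highest library (1.06 TPM), and without it the mean was 0.30 TPM. The gasdermin genes Gsdma, Gsdma2, Gsdma3 and Gsdmc had 0 expected counts in each library of the first quantification. The second gave Gsdma2 0.278, 2.66, 0.448 and 0.389 rescaled TPM, highest in replicate 2, with Gsdma at up to 0.523 and Gsdmc at up to 0.0226 there and Gsdma3 at 0.

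Triggers and regulators gave 15 of 17 above 1 TPM (17 tested). The guanylate-binding protein genes Gbp2 (279.5 ± 108 TPM), Gbp3 (90.9 ± 35.5 TPM) and Gbp5 (73.3 ± 33.9 TPM) were among the highest, and Gbp5 and Gbp2 came next in spread after Il1b (0.245 and 0.241). Zbp1, a nucleic acid sensor that can start pyroptosis and necroptosis, stood at 185 ± 43.3 TPM and the necroptosis pore gene Mlkl at 40.1 ± 11.1 TPM. Chmp4b (151 ± 32.7 TPM) and Chmp3 (30.8 ± 4.79 TPM), of the machinery that removes gasdermin pores from the membrane, lay above the level, and Chmp3 had the smallest spread (0.114). Also above 1 TPM were the NLRP3-binding Txnip (63.3 ± 14.7 TPM), Irf2, which drives Gsdmd transcription (31.9 ± 6.14 TPM), and the ATP-gated channel gene P2rx7 (15.7 ± 3.43 TPM). Hdac6 had neither call (1.22 ± 0.0963 TPM), and Serpinb1a, an inhibitor of inflammatory caspase activation, lay below (0.06, 0.34, 0.06 and 0.08 TPM, and 0.0667 TPM on average without replicate 2).

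**Figure D5:**
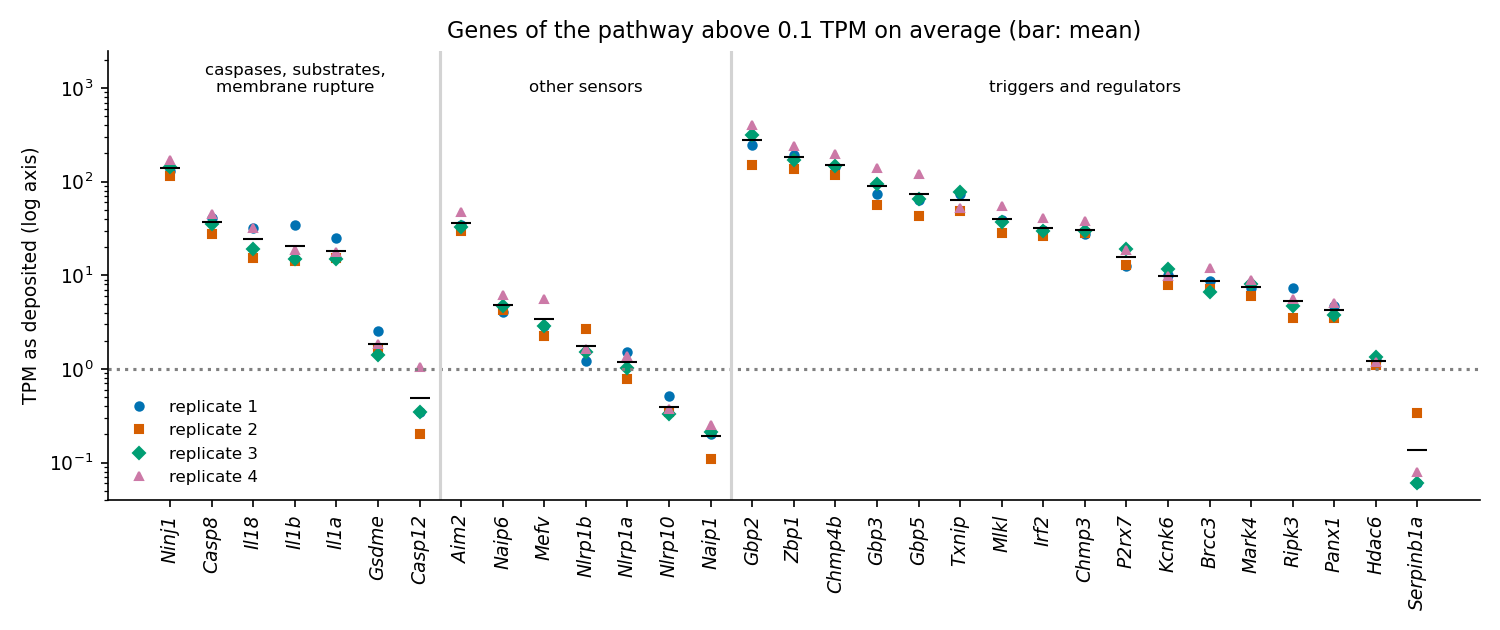
TPM as deposited of other pathway genes above 0.1 TPM on average, by group, on a log axis; points are the 4 libraries, bars the mean, and the dotted line 1 TPM. Ninj1 (139 TPM) and Gbp2 (279.5 TPM) stand at the top of their groups, and among the other sensors Aim2 (36.03 TPM) stands apart from the rest.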

How the data were processed

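The authors deposited, for each library, a gene table and a first transcript table with expected counts, TPM, posterior mean TPM and the posterior standard deviation of the count, and a second transcript table with estimated counts and TPM, per the file headers. Build mm10, annotation M21 and the 2 routes (a transcriptome alignment, and the read files directly) are per the deposited notes; for the aligner and the quantifiers, names and versions were not given in the sources used here. All 55536 annotated gene rows matched GENCODE M21.

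Genes with at least 10 summed expected counts (16262) were tested with limma 3.58.1 (intercept only, variance trend) on log2(TPM + 0.1) against 1 and 10 TPM, one-sided, with Benjamini-Hochberg adjustment at 0.05. The quantifications were compared with limma treat for genes of at least 1 TPM. Spread came from edgeR 4.0.16 (TMM) on expected counts rounded to whole numbers, with DESeq2 1.42.0 as an alternative. Ratios used exact sign-flip permutations. Sequence sharing was counted over the longest protein-coding transcript of each gene, and coding sequences were aligned with mafft 7.526. Software was Python 3.11.15 with matplotlib 3.10.9, scipy 1.17.1, numpy 2.4.6 and pandas 2.3.3, and R 4.3.3. The fits were tested on simulated data. No replicate files were identical (r between 0.9925 and 0.9962 over protein-coding genes).

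The genes, lists and tests were chosen with earlier results of these data known. Named are the 9 genes; pathway genes of at least 10 TPM or not above 1 TPM, and the 3 of largest and 1 of smallest spread among the former; transcripts of at least 10% of a gene's TPM in either quantification; the 2 genes most like Casp1, Nlrp3 and Naip5; and the highest marker of each other cell type. A few genes covered by the rule are left out here and in the plot of pathway levels, but stay in the counts. The list symbol Dfna5 matched no gene. The shallowest library's limit for a count of 0 is 3 counts or 0.0978 CPM, and covers counting error only.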

Additional observations from a re-analysis of the deposited data

Results flagged for a closer look

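In 5 of the 53 sets of 4 library values examined (levels of the 9 genes and of pathway genes, ratios and transcript shares), 1 library lay farther from the rest than Dixon's 95% limit allows; chance gives this in about 1 in 20 sets. Casp4 stood at 58.5 TPM in replicate 4 (the others between 28.6 and 32.8 TPM). With TPM rescaled to protein-coding genes, a check chosen after seeing the data, the Casp4 gap was 0.768 of the range, under that limit, against 0.858 as deposited. The ratio of Pycard to Nlrp3 was 3.87 in replicate 3 and that of Nek7 to Nlrp3 was 2.91 there, against at most 2.61 and 1.75 in the others; both share the low Nlrp3 value of replicate 3. The ratio of Nlrc4 to Naip2 plus Naip5 was 0.162 in replicate 1, against at most 0.0908. Serpinb1a stood at 0.34 TPM in replicate 2 and at 0.06 to 0.08 TPM in the others, from 24 and from 5 to 8 expected counts.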

How the results depend on the processing

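No paired analysis was possible because all libraries belong to 1 group. With the second quantification as deposited, whose TPM were lower by a median of 1.40 on the log2 scale, 2 of the 9 genes lay above 10 TPM, as did 5.81% of all genes and 8.17% of protein-coding genes. Nlrp3 (5.60 TPM) and Naip2 (5.02 TPM) then lay below that level, Nek7 (8.52 TPM) stood under it without a call, and Pycard (12.6 TPM) and Casp4 (14.1 TPM) had none. Against 1 TPM, Nlrp1a (0.462 TPM) and Hdac6 (0.416 TPM) then lay below. Rescaled to protein-coding genes, in the first and the second quantification, Naip5 lay above 10 (20.9 and 20.5), and Nlrp10 (1.28 and 1.21) and Casp12 (1.49 and 1.68) stood over 1 without a call; Nlrc4 stood over 10 without a call in the second (10.6). Rescaling raises each level by construction; the cause of the lower deposited TPM in the second quantification was not tested. Counts of calls, ratios and the median spread kept their direction, and counts stayed within 1.5 times, under the other pseudocount, filters, posterior means, size factors and with any 1 library left out. With DESeq2's gene-wise estimates, the median spread of the 9 genes (0.169) lay above that of all genes tested (0.141), not below it. At 4 libraries, ratios cannot reach p below 0.13, and Nlrc4 had the fewest counts of the 9 genes (432 to 708 per library).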
